A study of Mus musculus with 9 samples.

Results

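The clustered histone genes are the mouse genes whose symbols begin with Hist1h, Hist2h, Hist3h or Hist4. They were taken from GENCODE M21 and grouped by the histone that the symbol names. The symbol rule named 70 genes, and 57 of them were matched by identifier to the 37980 genes of the count table, while the other 13, the only Hist4 gene among them, were not analysed here. Matched were all 6 genes of linker histone H1, 18 of 20 of H2A and 14 of 19 of H2B. For H3 it was 7 of 12 and for H4 12 of 13. By annotation 54 of the 57 are protein coding, while Hist1h2aj, Hist1h2al and Hist3h2bb-ps are pseudogenes. Of the 57 genes, 45 lie on chromosome 13, 9 on chromosome 3 and 3 on chromosome 11 (GRCm38). They were followed in myeloid progenitors (MPs, Lin-ckit+Sca1-) that carried or lacked the Nup98-Hoxa10hd fusion gene (NA).

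Core histones H2A, H2B, H3 and H4 form the protein spool of the nucleosome, and H1 binds the DNA where it enters and leaves the spool. Most clustered histone genes are transcribed in S phase, when new DNA has to be packed, and their mRNAs end in a stem-loop bound by Slbp instead of a poly(A) tail. A few of the same genes can also be read past the stem-loop into a polyadenylated mRNA, which is known from cells that leave the cycle and differentiate, while histones encoded outside the clusters, such as H3f3a, are made through the whole cycle.

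RNA-seq was performed on 4 NA MP and 5 WT MP samples, each of 100000 MPs from the bone marrow of C57BL/6 recipient mice, sorted 3 months after transplantation according to the labels and a month later according to the methods of the study. NA MPs were sorted as Tdtomato+ donor cells from irradiated adult recipients of NA MPPs, whose donors were NA LSL/+; Vav-Cre mice that express the fusion from the Rosa26 locus in blood cells. WT MPs were sorted as CD45.2+ cells from irradiated recipients of WT MPPs, and as the recipients were CD45.2+ too, cells of donor, helper and host origin cannot be told apart in this group. The study names CD45.1 as the mark of WT donor cells in other places, and by that mark the WT MP samples may hold no donor cells at all. Fusion and sort marker thus differ together between the groups. Whether the samples of a group were separate animals is not named, so p-values measure only the spread between samples. The labels name the RNA as polyA RNA, so stem-loop mRNAs without a tail reach such a library only in part, and histone levels here are levels in this library.

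Deposited totals ran from 6602851 to 6734284 per sample, and the reads behind them, recovered from the smallest steps of the values, from 5557701 to 8106138. At that depth 3 reads correspond to 0.373 to 0.542 CPM (after TMM normalization), a floor that covers counting error only. Hoxa10, whose homeodomain is in the fusion, lay between 17.4 and 23.3 CPM in NA MPs and between 0.838 and 1.80 CPM in WT MPs, so every sample stood on the side its label gives. Kit, which is in the sort gate, and Mpo, a gene of myeloid progenitors, were at 446 ± 20.2 and 16214 ± 671 CPM in NA MPs (SD, n = 4) and at 456 ± 6.42 and 15584 ± 266 CPM in WT MPs (SD, n = 5).

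The 3′ stem-loop is the feature that sets clustered histone mRNAs apart, and a transcript annotated far past it is the annotation's sign of the polyadenylated form. A perfect hairpin of 6 paired bases that start with GG, around a 4-base loop of T, C or T, T and any base, was found in the annotated transcripts of 38 of the 57 genes. It stood at least 100 bases before the transcript's end in 19 of them (long) and closer to the end in the other 19 (short). Of the 19 genes without a hairpin, 13 had annotated transcripts that stop within 2 bases of the stop codon or have no coding part, so their 3′ ends were not in the annotation. The stem-loops of the members described most below are printed 5′ to 3′ from the GENCODE M21 transcripts with 5 bases on each side, the hairpin in capitals.
Hist1h1c: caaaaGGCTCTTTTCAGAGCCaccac
Hist1h2ac: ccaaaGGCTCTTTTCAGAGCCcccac
Hist3h2a: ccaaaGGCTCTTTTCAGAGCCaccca
Hist1h2bg: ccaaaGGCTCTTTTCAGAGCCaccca
Hist1h2bj: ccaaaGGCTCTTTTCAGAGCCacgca
Hist1h4i: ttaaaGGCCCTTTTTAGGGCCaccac

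The hairpin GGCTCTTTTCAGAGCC was shared by 21 of the 38 genes, in all classes but H4, while 6 H4 genes held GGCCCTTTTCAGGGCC and Hist1h4i and Hist2h4 held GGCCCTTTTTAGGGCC. The hairpin thus did not part Hist1h1c, with 840 bases annotated past it, from Hist1h2bj, with 23 bases past it.

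Clustered histone transcripts were a small part of the library, and more of it in NA MPs. The summed level of all 57 genes was 179, 145, 153 and 166 CPM in NA MP replicates 1 to 4 and 87.7, 87.0, 98.6, 105 and 93.0 CPM in WT MP replicates 1 to 5. The NA MP samples all lay above the WT MP samples, with a log2 ratio of the group means of 0.77 (1.71-fold, a value without a test). Without Hist1h1c, the member with the most counts, the ratio was 0.58. As these are bulk samples, more cells with histone mRNA and more histone mRNA per cell cannot be told apart.

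The difference was unequal between the classes. Summed H1 transcripts were 61.7 ± 9.26 CPM in NA MPs (SD, n = 4) and 28.5 ± 5.20 CPM in WT MPs (SD, n = 5), a log2 ratio of 1.12, followed by H2A at 29.8 ± 3.60 against 17.0 ± 1.65 CPM (0.81) and H2B at 50.8 ± 5.15 against 30.1 ± 1.87 CPM (0.76). In these 3 classes the groups did not overlap. Without the most abundant member of each class the ratios were 0.45 for H1, 0.52 for H2A and 0.70 for H2B, the reverse of their order with it. Without Hist1h1c the H1 sums of the groups overlapped (7.04 to 10.04 CPM in NA MPs and 5.26 to 7.95 CPM in WT MPs), while H2A and H2B stayed apart without Hist3h2a and Hist1h2bc. H3 was at 4.46 ± 0.543 against 3.98 ± 0.508 CPM (0.16) and H4 at 14.3 ± 1.38 against 14.8 ± 1.40 CPM (-0.05), and in both the groups overlapped, so these differences were within the spread between samples.

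**Figure D1:**
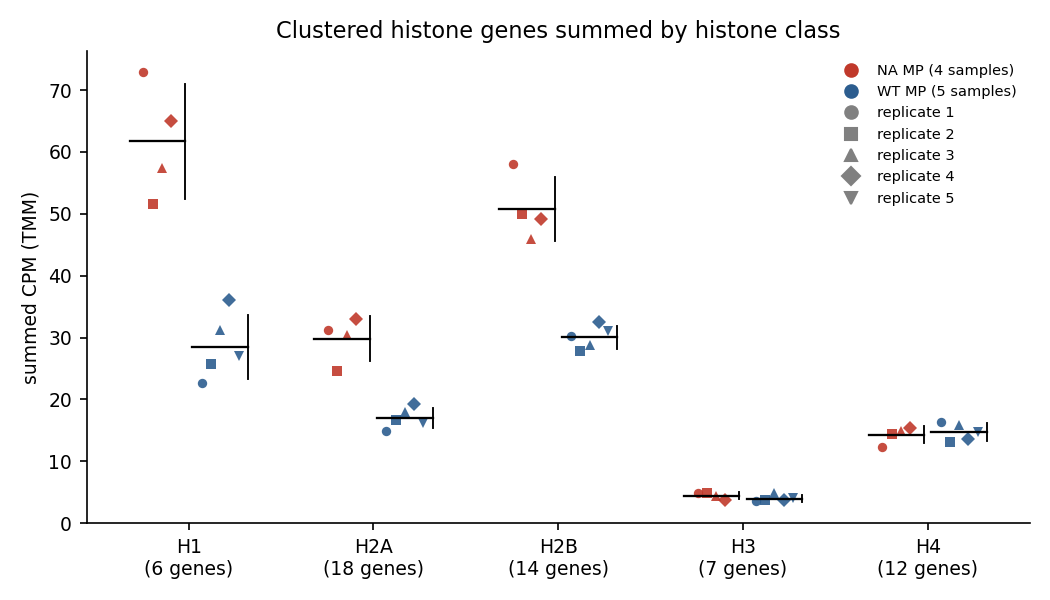
Summed CPM of all matched clustered histone genes of each class (vertical axis) in every sample, with red symbols for the 4 NA MP samples, blue for the 5 WT MP samples, horizontal bars for means and vertical bars for ± SD. H1, H2A and H2B stand apart between the groups (log2 ratios 1.12, 0.81 and 0.76), whereas the H3 and H4 samples overlap.

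Of the 57 genes, 12 had enough counts for the test across all genes and 45 did not. Of the 12, 7 rose in NA MPs at an adjusted p under 0.05 from edgeR, against 17.9% of all 11966 tested genes, and 0 fell, against 16.3% of all. By an unadjusted p under 0.05 from edgeR 8 were higher and 0 lower, a cut at which all tested genes were not counted. DESeq2 called 6 of the 12 higher and 0 lower, against 1644 and 1421 of all 11966 genes. In 5 of the 12 the NA MP samples all lay above the WT MP samples, as in 14.1% of all tested genes, and in 0 the reverse held, as in 12.2% of all. The median log2 fold change of the 12 was 0.78, against -0.0013 over all tested genes. The filter passes a gene more easily when 1 group is high. The share called higher and the median may be raised by it, and the 12 do not stand for the 45 that were not tested. Without the filter, edgeR called 6 of 52 members higher and 1 lower, against 2265 and 2034 of all 20102 genes.

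**Figure D2:**
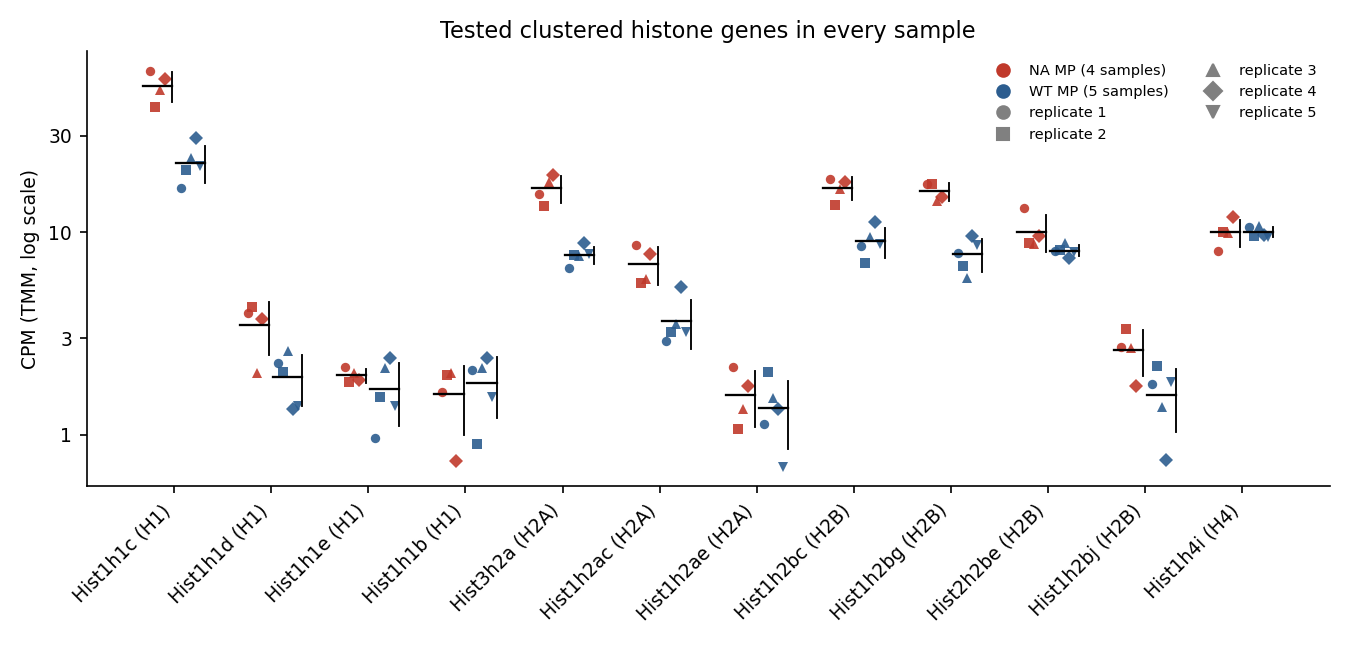
CPM on a log scale (vertical axis) of the 12 tested clustered histone genes in every sample, with red symbols for NA MPs, blue for WT MPs, horizontal bars for means and vertical bars for ± SD. The groups do not overlap for Hist1h1c, Hist3h2a, Hist1h2ac, Hist1h2bc and Hist1h2bg.

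Hist1h1c (ENSMUSG00000036181, chr13:23738808-23740367, plus strand) encodes a somatic H1 subtype and led the linker histones. Its level was 62.9, 41.5, 50.3 and 57.2 CPM in NA MP replicates 1 to 4 and 16.5, 20.4, 23.2, 29.1 and 21.4 CPM in WT MP replicates 1 to 5. The lowest NA MP sample was thus above the highest WT MP sample, and the log2 fold change was 1.26 (standard error, SE, 0.18, edgeR adjusted p = 0.00096). It gave from 28.6% to 35.1% of the summed histone CPM of an NA MP sample and from 18.8% to 27.7% of that of a WT MP sample. Per kilobase of annotated exon it also had the highest level of the tested members, at 23.0 CPM per kb over all samples. In WT MPs alone its lead over Hist1h4i was small and did not hold in every sample. Of its 50-base runs, 8.54% occurred in another gene.

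The other tested H1 genes were at much lower counts. Hist1h1d (ENSMUSG00000052565), a somatic H1 subtype as well, was at 3.98, 4.26, 2.01 and 3.73 CPM in NA MPs and 2.27, 2.05, 2.60, 1.35 and 1.40 CPM in WT MPs. Its log2 fold change was 0.85 (SE 0.25, edgeR adjusted p = 0.00734), and the groups overlapped, since NA MP replicate 3 lay below 3 of the 5 WT MP samples. Hist1h1b (ENSMUSG00000058773), the tested H1 gene with the lowest fold change, was at 1.63, 1.98, 2.01 and 0.746 CPM in NA MPs and 2.10, 0.898, 2.14, 2.40 and 1.54 CPM in WT MPs. Its lowest sample was NA MP replicate 4 and its groups overlapped (log2 fold change -0.18, SE 0.31, edgeR adjusted p = 0.696). Hist1h1e had a log2 fold change of 0.22 (SE 0.29, edgeR adjusted p = 0.612), and shares exon sequence with Hist1h2be on the same strand, so its counts are uncertain. Hist1h1a was not tested, and Hist1h1t, an H1 of the testis, had 1 read in each of 2 NA MP samples and 0 in the other samples.

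Of the 18 H2A genes, 3 were tested and 2 rose. Hist3h2a (ENSMUSG00000078851, chr11:58954685-58956830, plus strand), the H2A gene of the small cluster on chromosome 11, was at 15.6, 13.5, 17.8 and 19.1 CPM in NA MPs and 6.68, 7.74, 7.64, 8.85 and 7.79 CPM in WT MPs. All NA MP samples stood above all WT MP samples, with a log2 fold change of 1.08 (SE 0.12, edgeR adjusted p = 1.81e-10). An exon of Trim17 overlaps it on the same strand, so its counts are uncertain, and exons of predicted genes overlap Hist1h2ac and Hist1h2ae. Hist1h2ac (ENSMUSG00000069270, chr13:23681467-23683948, minus strand) was at 8.68, 5.63, 5.87 and 7.85 CPM in NA MPs and 2.91, 3.21, 3.51, 5.40 and 3.21 CPM in WT MPs. Its groups did not overlap either, although WT MP replicate 4 came close to NA MP replicate 2 (log2 fold change 0.96, SE 0.19, edgeR adjusted p = 4.98e-05). Hist1h2ae (ENSMUSG00000069272), with 2.17, 1.07, 1.34 and 1.74 CPM in NA MPs and 1.13, 2.05, 1.53, 1.35 and 0.699 CPM in WT MPs, overlapped between the groups (log2 fold change 0.19, SE 0.32, edgeR adjusted p = 0.688). The 15 H2A genes that were not tested summed to 4.72 ± 0.510 CPM in NA MPs (SD, n = 4) and 4.27 ± 0.700 CPM in WT MPs (SD, n = 5).

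Of the 14 H2B genes, 4 were tested and 3 rose. Hist1h2bc (ENSMUSG00000018102, chr13:23684199-23692908, plus strand) was at 18.4, 13.7, 16.4 and 17.8 CPM in NA MPs and 8.58, 7.05, 9.47, 11.2 and 8.80 CPM in WT MPs. Hist1h2bg (ENSMUSG00000058385, chr13:23571396-23572013, plus strand) was at 17.4, 17.3, 14.3 and 14.9 CPM in NA MPs and 7.93, 6.80, 5.96, 9.60 and 8.66 CPM in WT MPs. For both genes the lowest NA MP sample was above the highest WT MP sample, with log2 fold changes of 0.88 (SE 0.12, edgeR adjusted p = 4.38e-08) and 1.03 (SE 0.12, edgeR adjusted p = 1.42e-09). Hist2h2be (ENSMUSG00000068854), the matched H2B gene of chromosome 3 and the tested H2B gene with the lowest fold change, was at 13.2, 8.83, 8.72 and 9.58 CPM in NA MPs and 8.09, 8.21, 8.86, 7.50 and 7.97 CPM in WT MPs. NA MP replicate 1 was high, the other samples lay close together, and the change did not pass the threshold (log2 fold change 0.32, SE 0.13, edgeR adjusted p = 0.0599). Hist1h2bj was just past it, with a log2 fold change of 0.72 (SE 0.28, edgeR adjusted p = 0.0395), and lost the call with DESeq2 (adjusted p = 0.124), with the correction for GC content and length (edgeR adjusted p = 0.136), with the recovered reads (edgeR adjusted p = 0.055) and without any of 5 single samples. Its 50-base runs were shared with other genes to 59.4%, the highest share among the tested members, so its counts are uncertain. Hist1h2bg shared 49.7% of its runs and Hist1h2bc 30.1%, so their counts are not free of this limit. The 10 H2B genes without a test summed to 5.50 ± 1.29 CPM in NA MPs (SD, n = 4) and 3.55 ± 0.323 CPM in WT MPs (SD, n = 5), a log2 ratio of 0.63 with overlapping groups.

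Hist1h2ac and Hist1h2bc lie head to head, 250 bases apart, and both rose, so the bases between them are shown. The 250 bases before the RefSeq start of Hist1h2ac (GRCm38.p6, chr13:23683960-23684209, minus strand) hold 239 of the 250 bases of that gap. Capitals mark the motifs searched on both strands, the CCAAT box (CCAAT), the TATA box as TATAAA, the octamer ATTTGCAT and the H1 box AAACACA. The same stretch before Hist1h1c (GRCm38.p6, chr13:23738557-23738806, plus strand) is given beside it.
Hist1h2ac upstream: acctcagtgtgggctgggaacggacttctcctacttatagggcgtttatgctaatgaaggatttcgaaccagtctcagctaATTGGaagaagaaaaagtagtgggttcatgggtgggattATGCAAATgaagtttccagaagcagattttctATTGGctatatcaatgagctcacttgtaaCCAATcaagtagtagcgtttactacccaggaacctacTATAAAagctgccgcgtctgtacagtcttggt
Hist1h1c upstream: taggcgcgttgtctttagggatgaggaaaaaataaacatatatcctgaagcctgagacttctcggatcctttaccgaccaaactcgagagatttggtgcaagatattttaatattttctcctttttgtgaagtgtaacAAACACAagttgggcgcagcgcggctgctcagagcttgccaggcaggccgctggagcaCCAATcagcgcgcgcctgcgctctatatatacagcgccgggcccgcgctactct

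RefSeq promoter windows of 300 bases (250 before and 50 after the start) were matched for 50 of the 57 genes, Hist1h2be with 2 windows. CCAAT was in 84.3% of these 51 windows and in 37.4% of all 32851 windows, TATAAA in 60.8% against 13.6%, ATTTGCAT in 23.5% against 1.74% and AAACACA in 15.7% against 7.18%. By class, ATTTGCAT was in 43.8% of the H2A and 41.7% of the H2B windows and in 0 of the H1, H3 and H4 windows, AAACACA in 5 of the 6 H1 windows, and CCAAT in 27.3% of the H4 windows against 100% in each other class. A match says only that these letters are present. The genes formed 14 head-to-head pairs in the annotation, of which 9 had both genes in the table and 2 had both tested. In the pair of Hist1h2ac and Hist1h2bc both genes rose, and in that of Hist1h2ae and Hist1h2bg, 175 bases apart, the log2 fold changes were 0.19 and 1.03.

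H3 and H4 gave a different picture. Of the 12 H3 genes named by symbol only 7 were matched, so their sum leaves out part of the class. None of the 7 was tested, and they summed to 4.88, 4.87, 4.36 and 3.73 CPM in NA MPs and 3.56, 3.72, 4.83, 3.75 and 4.05 CPM in WT MPs. The lowest NA MP sample lay among the WT MP samples, and the highest WT MP sample among the NA MP samples. Of the 12 H4 genes only Hist1h4i (ENSMUSG00000060639, chr13:22040636-22041362, minus strand) was tested, at 8.14, 10.04, 9.90 and 11.9 CPM in NA MPs and 10.7, 9.62, 10.7, 9.75 and 9.50 CPM in WT MPs. The lowest and the highest of the 9 samples were both NA MPs (log2 fold change 0.0001, SE 0.12, edgeR adjusted p = 0.999). Per kilobase, over all samples, Hist1h4i stood at 13.8 CPM per kb, between Hist1h2bg at 18.5 and Hist1h2bc at 10.7 CPM per kb. Both of those genes rose, and by group Hist1h4i lay below them in NA MPs and above them in WT MPs. The other 11 H4 genes summed to 4.27 ± 0.641 CPM in NA MPs (SD, n = 4) and 4.71 ± 0.964 CPM in WT MPs (SD, n = 5).

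**Figure D3:**
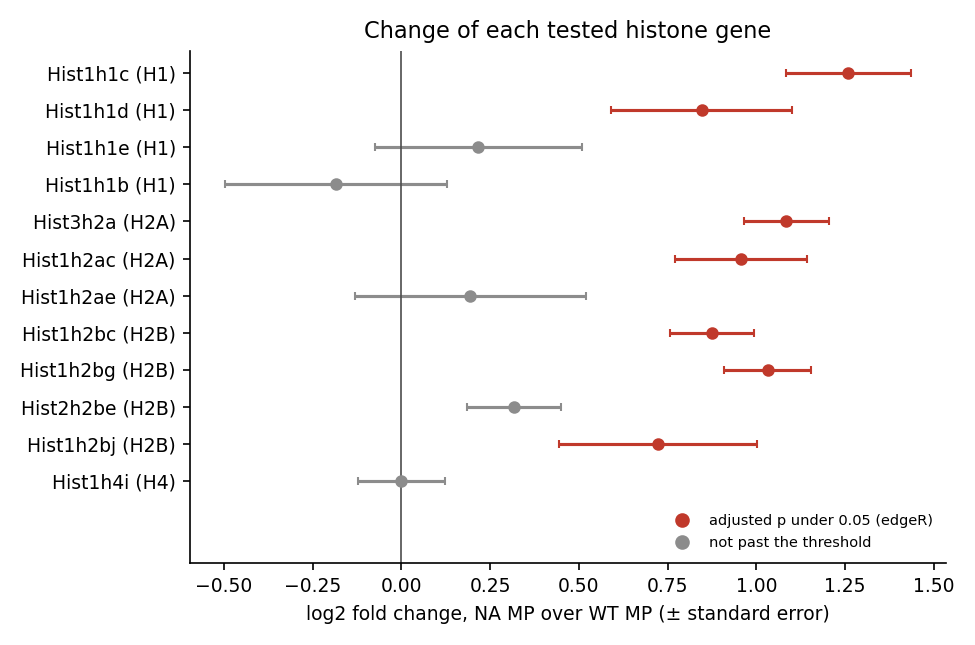
Log2 fold change of NA MPs over WT MPs from edgeR (horizontal axis) with its standard error for each tested clustered histone gene, red where the adjusted p was under 0.05. The 7 genes in red lie between 0.72 and 1.26, and Hist1h4i lies at 0.0001.

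The 45 genes without a test had at most 17 reads in any sample, and 5 of them, Hist1h2aa, Hist2h2aa1, Hist2h2aa2, Hist1h2ba and Hist1h2bq, had 0 in every sample. Together they summed to 20.6 ± 2.16 CPM in NA MPs (SD, n = 4) and 17.4 ± 1.97 CPM in WT MPs (SD, n = 5), with overlapping groups and a log2 ratio of 0.24. Near-identical copies make these values uncertain. Of the 57 genes, 26 shared over 50% of their 50-base runs with another gene, and 11 shared over 80%, of which 0 were tested, 3 were at 0 throughout and the most read had 9 reads in a sample. The values are RSEM expected counts, and the settings used for reads that match several copies are not named. Of the 382 member values above 0.01 reads, 375 were whole within 0.01. Summing all copies of a class that share sequence left 7 tested features, of which 3 rose, an H1 feature (log2 fold change 1.18, SE 0.16, edgeR adjusted p = 0.000774), an H2A feature (0.81, SE 0.088, edgeR adjusted p = 1.35e-10) and an H2B feature (0.88, SE 0.077, edgeR adjusted p = 1.9e-13). The summed H3 and H4 features had log2 fold changes of 0.16 (SE 0.19, edgeR adjusted p = 0.561) and -0.05 (SE 0.10, edgeR adjusted p = 0.765).

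Genes annotated far past the stem-loop held most of the counts. The 19 long genes summed to 129, 101, 109 and 123 CPM in NA MPs and 56.8, 58.3, 62.0, 73.5 and 58.0 CPM in WT MPs, without overlap and with a log2 ratio of 0.91. Hist1h1c alone gave 53.0 of their mean of 116 CPM in NA MPs and 22.1 of 61.7 CPM in WT MPs. The 19 short genes summed to 12.8, 12.8, 11.7 and 10.4 CPM in NA MPs and 9.87, 8.98, 12.8, 7.20 and 12.9 CPM in WT MPs, with overlap and a log2 ratio of 0.21. The 19 genes without a hairpin in their models lay between, with a log2 ratio of 0.59 and no overlap. Of the 12 tested genes 8 were long and 5 of these rose, 1 was short and rose (Hist1h2bj), and 3 had no hairpin and 1 of these rose (Hist1h2bc). AATAAA, the poly(A) signal, stood in the last 60 bases of an annotated transcript of 4 of the 12 tested genes, of which Hist1h1c and Hist3h2a rose and Hist1h2ae and Hist2h2be did not pass the threshold. Which 3′ end the reads came from cannot be told from counts per gene, and Hist1h4i, with 330 bases past its stem-loop, was long without a change.

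Most genes of the machinery around the clustered genes were not called in either direction. Of 25 tested genes for the transcription and 3′ processing of histone pre-mRNA, 8 fell and 1 rose (median log2 fold change -0.07), where 16.3% of all tested genes fell and 17.9% rose, shares that also stand behind the counts of the lists below. The fallen included Npat, the coactivator of histone transcription in S phase, at 44.0 ± 2.72 CPM in NA MPs (SD, n = 4) and 52.4 ± 1.42 CPM in WT MPs (SD, n = 5), with a log2 fold change of -0.25 (SE 0.058, edgeR adjusted p = 0.000545). Slbp, which binds the stem-loop, had a log2 fold change of -0.10 (SE 0.037, edgeR adjusted p = 0.0327), Casp8ap2 of -0.25 (SE 0.055, edgeR adjusted p = 0.000474), and Ccne1, the cyclin E1 gene that acts on Npat with Cdk2, of -0.53 (SE 0.082, edgeR adjusted p = 1.76e-06). Cdk2 itself was higher (log2 fold change 0.11, SE 0.041, edgeR adjusted p = 0.0338). Of 24 tested histone chaperones 7 fell and 0 rose (median -0.06), among them Nasp, which holds H3 and H4, and Hat1, which acetylates new H4, at log2 fold changes of -0.11 (SE 0.034, edgeR adjusted p = 0.00983) and -0.24 (SE 0.040, edgeR adjusted p = 4.12e-06). The summed CPM was lower in NA MPs, without overlap, for the pre-mRNA list (2239 to 2312 CPM in NA MPs and 2344 to 2439 CPM in WT MPs) and the chaperones (6560 to 6763 and 6947 to 7029 CPM). Of 15 tested genes of the poly(A) tail machinery 4 fell, Papola, Wdr33, Cpsf6 and Clp1, and 1 rose, Pabpc1 (median -0.05), and their sums overlapped. Without Pabpc1, the most abundant of that list, the sums were lower in NA MPs without overlap (1534 to 1565 CPM in NA MPs and 1577 to 1642 CPM in WT MPs).

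Of 34 tested genes of S phase and DNA replication, 13 fell, 2 rose and the others did not pass the threshold (median log2 fold change -0.07). Their sum was 7605 to 8136 CPM in NA MPs and 8347 to 8610 CPM in WT MPs, without overlap. Mki67 had the largest fall of the 13, from 817 ± 15.8 CPM in WT MPs (SD, n = 5) to 607 ± 30.8 CPM in NA MPs (SD, n = 4), a log2 fold change of -0.43 (SE 0.028, edgeR adjusted p = 1.99e-17). Rrm1, a subunit of ribonucleotide reductase, had -0.32 (SE 0.028, edgeR adjusted p = 2.54e-13), and E2f2 and Gins2 were the 2 that rose. Of 11 tested genes of cyclin-dependent kinase inhibition and exit from the cycle, 7 rose and 2 fell (median 0.45), with sums of 639 to 775 CPM in NA MPs and 547 to 598 CPM in WT MPs, without overlap. The 2 that fell were Ccng1 at a log2 fold change of -0.17 and Rbl1, the most abundant of the list, at -0.10. Those that rose were Cdkn1a, the p21 gene, at 15.7 ± 3.92 against 7.58 ± 1.25 CPM (log2 fold change 1.05, SE 0.15, edgeR adjusted p = 1.95e-06), Cdkn2c at 0.53, Btg1 at 0.69, Btg2 at 1.71, Tob1 at 1.13, Ccng2 at 0.45 and Cdkn1b at 0.28. Their part in the histone levels was not tested.

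Of 10 tested genes of histones encoded outside the clusters, most of whose mRNAs carry poly(A) tails (H2afx is known to make a stem-loop mRNA too), 6 rose, 1, Cenpa, fell, and H2afz, H2afx and H2afj did not pass the threshold (median log2 fold change 0.16). The 7 others of the 17 matched were not tested. H3f3b, a gene of the replacement histone H3.3, was at 948 ± 105 CPM in NA MPs (SD, n = 4) and 654 ± 44.7 CPM in WT MPs (SD, n = 5), a log2 fold change of 0.54 (SE 0.086, edgeR adjusted p = 0.0021). The other H3.3 gene H3f3a had 0.18 (SE 0.030, edgeR adjusted p = 2.38e-06), H2afy, which encodes macroH2A1 and was the most abundant of the list, 0.18 (SE 0.024, edgeR adjusted p = 1.52e-08), and H2afy2 2.14 (SE 0.16, edgeR adjusted p = 6.1e-16). H1fx, an H1 outside the clusters, had 0.65 (SE 0.11, edgeR adjusted p = 5.12e-06). For these 5 genes the groups did not overlap. The list summed to 3748 to 4055 CPM in NA MPs and 3270 to 3402 CPM in WT MPs, far more than the clustered genes in this library.

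**Figure D4:**
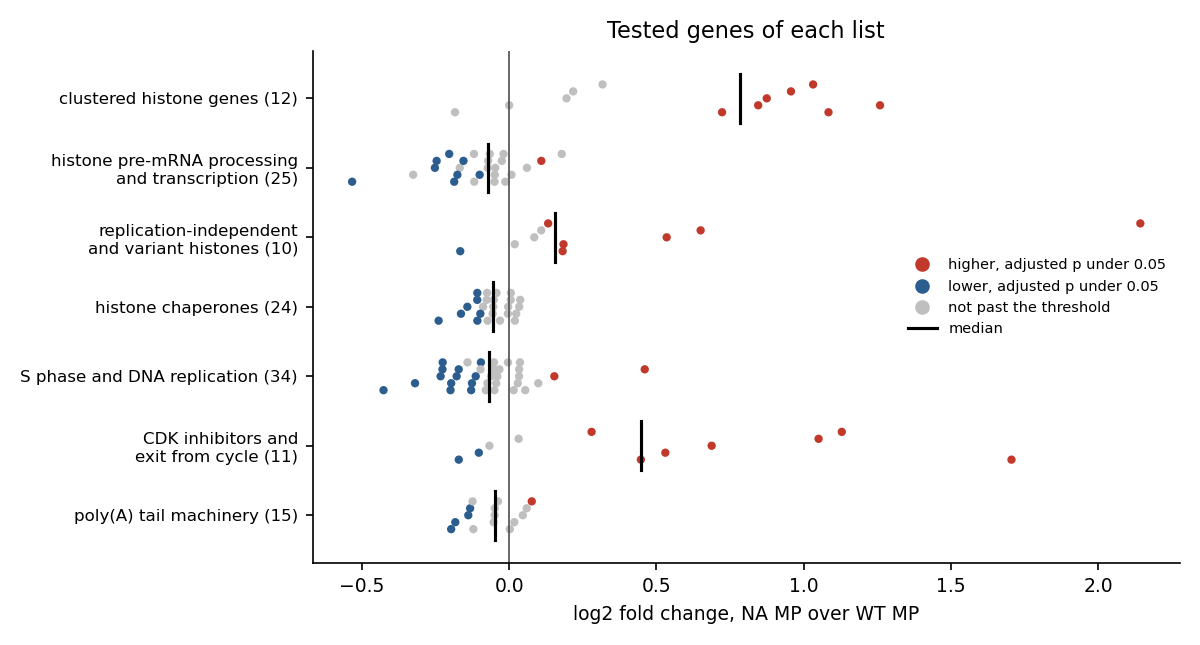
Log2 fold change of NA MPs over WT MPs from edgeR (horizontal axis) of the tested genes of each list (number in parentheses), red for genes that rose, blue for genes that fell, grey for the others, and a black bar for the median. The median is 0.78 for the clustered histone genes, 0.45 for the inhibitors of the cycle, 0.16 for the histones outside the clusters and -0.07 for S phase.

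Markers of other blood cells differed between the groups as well, although the Lin gate of the sort, with antibodies to B220, CD3e, Gr1, Mac1 and Ter119 among others, is set to leave out mature cells that carry these proteins. All 10 tested B cell markers of 11 rose, and their sum was 290, 480, 482 and 365 CPM in NA MPs and 172, 171, 160, 168 and 162 CPM in WT MPs, with Ighm as the most abundant gene and 0 of the 11 at 0 in every sample, though Ms4a1 was at most 0.140 CPM. Of 12 tested erythroid markers of 14, 10 fell and 0 rose, and their sum was 963, 802, 863 and 1018 CPM in NA MPs and 1601, 1611, 1488, 1454 and 1500 CPM in WT MPs, led by Car1. Both sums parted the groups without overlap, the B cell sum upward and the erythroid sum downward. Of 7 tested mast cell and basophil markers 6 rose and 1 fell, with sums of 732 to 861 CPM in NA MPs and 543 to 569 CPM in WT MPs, without overlap, and Gata2 as the most abundant. Of 6 tested markers of stem and multipotent cells 4 rose, Flt3, Hlf, Mecom and Slamf1, with sums of 167 to 197 CPM in NA MPs and 112 to 127 CPM in WT MPs, without overlap, and Flt3 as the most abundant.

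Of the other lists, 6 of 10 tested myeloid progenitor markers rose and 1, Fcgr3, fell, and their sums of 24887 to 27325 CPM in NA MPs and 24191 to 25173 CPM in WT MPs overlapped. Neutrophil markers (3 of 8 rose, 2 fell, S100a8 most abundant), monocyte and macrophage markers (4 of 8 rose, 2 fell, Ly6c2 most abundant), megakaryocyte markers (1 of 6 rose, 2 fell, Itga2b most abundant) and dendritic cell markers (2 of 5 rose, 1 fell, Cd74 most abundant) had sums that overlapped between the groups. Without their most abundant gene, the sums of the myeloid progenitor, neutrophil and dendritic markers lay higher in NA MPs and that of the megakaryocyte markers lower, without overlap. Cd74 led the dendritic markers over all samples, while in NA MPs alone Flt3, also in the list of stem and multipotent cells, was higher. Of the 7 T cell markers 1 was tested, Lck, which rose, while Cd3e, Cd3g and Trac were at 0 in every sample and the sum was 6.87 to 9.95 CPM in NA MPs and 1.67 to 2.79 CPM in WT MPs, a separation made by Lck, since the other T cell markers summed to 0.609 to 1.12 and 0.306 to 0.978 CPM, with overlap. These shifts in cell type markers run along the same 2 groups as the histone levels, and their part in them was not tested.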

How the data were processed

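Reads were processed by the authors with bcl2fastq, RSEM and DESeq2 on mm10 (GRCm38), according to the submitters' processing notes. Versions, annotation and use of strand are not given in the sources used here. The deposited table holds RSEM expected counts per gene. Its values are not raw: divided by the most frequent value under 1.5 of each column (0.827 to 1.20), from 97.3% to 97.7% of the values up to 1000 in a sample were whole within 0.01. The DESeq2 size factors of the recovered reads, multiplied by these values, gave 0.9994 to 1.002, so each sample carries the scale of a size factor. Ratios of CPM are unaffected by it, while the weight of counting noise is not, so fitted fold changes move a little with the recovered reads.

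The deposited expected counts were rounded and tested with edgeR 4.0.16 in R 4.3.3 (TMM, filterByExpr with minimum count 10, robust quasi-likelihood test, Benjamini-Hochberg over 11966 of 20102 genes with any count, threshold 0.05), after a check on simulated counts. The recovered reads, an alternative chosen after seeing the data, gave 4078 calls against 4093. CPM are unrounded. Levels in single samples were given for the 2 tested members of each class with most CPM and those with the highest and lowest fold change, and Hoxa10 was added as a check of labels after its values were seen. Other alternatives were RLE, library size only, other filters, DESeq2 1.42.0, no robust option, threshold 0.01, unrounded counts, a GC content and length correction, the replicate number as a block, summed copies and leaving out each sample. Every pair of samples of a group differed by more than sampling noise (chi-square per degree of freedom 1.20 to 2.69). Members and lists were chosen with earlier results of these data known. Of the lists, Zcchc6, Zcchc11, H1f0 and Cdkn2d were not matched and are not analysed here. Sequences came from GENCODE M21 and RefSeq (GRCm38.p6).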

Additional observations from a re-analysis of the deposited data

Results flagged for a closer look

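For Hist1h2ac, WT MP replicate 4 stood apart from the other WT MP samples at 5.40 CPM, with a gap to its neighbour of 0.758 of the group's range, above the 95% limit of Dixon's test for 5 samples (0.71). It was 1 of 36 groups of samples examined, where chance sets apart about 1 in 20.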

How the results depend on the processing

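The number of genes past the threshold ranged from 2876 (threshold 0.01) to 4306 (GC content and length correction) over the alternatives and from 3632 to 3942 without single samples. The GC content and length correction moved the split of calls to 1678 higher and 2628 lower, against 2138 and 1955. The number of clustered histone genes higher was 5 to 7 under the other alternatives, and 3 when copies sharing sequence were summed, by construction since fewer features remain. Without the filter it was 6 of 52 members, where 2265 of 20102 genes were higher, so their share was near that of all genes. With at least 10 counts in every sample it was 5 of 7, where 1983 of 11124 genes were higher. For summed copies it was 3 of 7 features, where 2134 of 11961 genes were higher. The number lower was 1 without the filter (Hist1h4m, with 0 reads in every NA MP sample and 1 to 4 in WT MP samples) and 0 under the others. Without the most abundant member of each sum, the log2 ratio of summed CPM was 0.58 for all genes, 0.45 for H1, 0.52 for H2A and 0.70 for H2B, the reverse of their order with it. Without single samples the ratio of all genes ran from 0.72 to 0.82.

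Replicate numbers did not pair the samples (correlations of deviations of same-numbered samples from -0.024 to 0.056, and 1 of 4 NA MP samples correlated best with its own number). With the replicate number as a block 3703 of 11966 genes were called, 1960 of them higher. Of the 12 tested histone genes 7 were higher, as before.

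Hist1h1b, Hist1h2ae and Hist1h4i, which were not called, changed sign: Hist1h1b ranged from -0.35 to 0.05 without single samples, the latter (0.0462) without NA MP replicate 4, and Hist1h2ae was at -0.08 (-0.0819) with the replicate block and the GC content and length correction. Hist1h4i, at 0.0001, was at -0.0017 with RLE and with DESeq2, -0.0208 with library size only, -0.0045 without the filter, -0.0056 with unrounded counts, -0.121 with the GC content and length correction, -0.0217 with the replicate block, -0.1333 with both, -0.0478 as part of summed copies, and from -0.0925 to 0.0874 without single samples. With summed copies left out, where a gene takes the value of a feature that may hold other genes, 217 of 245 values of single histone genes kept direction and side of the threshold, 15 changed sign (13 of Hist1h4i), 11 lost the call, all of Hist1h2bj, and 2 gained it, Hist2h2be without NA MP replicate 2 (adjusted p = 0.0392 from edgeR) or 3 (adjusted p = 0.0363 from edgeR), where without replicate 1 it was at 0.16 (adjusted p = 0.407 from edgeR). The cause was not tested. The 45 genes without a test had 17 reads or fewer in every sample.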
